A study of Saccharomyces cerevisiae with 24 samples.

Results

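Acetyl-CoA is the acetyl donor of the tricarboxylic acid and glyoxylate cycles, of lipid synthesis and of histone acetylation, and it does not cross membranes freely. Budding yeast makes it from acetate with acetyl-CoA synthetases, and moves acetyl units between peroxisome, cytosol and mitochondrion as acetylcarnitine in the carnitine shuttle. Yeast takes carnitine up from the medium and does not make it. Many genes of acetate activation and of the shuttle are known to be repressed by glucose and to be used during growth on ethanol and other carbon sources that are not fermented. The transcripts of 7 such genes were described here, chosen by name from the 6692 open reading frames (ORFs) of the deposited count table.

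The members fall into 2 groups by role. Acs1 and Acs2 join acetate to coenzyme A at the cost of ATP, and Ach1 is a mitochondrial enzyme that transfers coenzyme A from succinyl-CoA to acetate and can also hydrolyse acetyl-CoA. Cat2 is the carnitine acetyltransferase of mitochondria and peroxisomes, Yat1 that of the mitochondrial outer membrane, Yat2 that of the cytosol, and Crc1 is the acylcarnitine carrier of the mitochondrial inner membrane. All 7 had counts in every library and passed the filter on low counts in each fit.

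The data are counts from sequencing of poly(A) RNA of whole yeast cells in 3 strains and 2 media, with 4 libraries in each of the 6 groups and 24 in all. H3L126M carries methionine and H3L126H carries histidine in place of leucine at position 126 of histone H3, a residue the study examined as a ligand of copper bound by the histone, and both H3 genes (HHT1 and HHT2) were edited with CRISPR-Cas9. WT was the parent of both, OCY1131 (derived from BY4741, MATa his3Δ1 leu2Δ0 met15Δ0 ura3Δ0, with HHT2 restored at its locus), so all 3 strains share these markers. Each strain was grown in YPEG, an oxidative medium with ethanol and glycerol as carbon sources, and in YPD, a fermentative medium with glucose. Each mutation is represented by 1 strain, and the 4 libraries of a group came from replicate experiments, so the spread between libraries does not include differences between independent clones.

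Libraries held between 8570789 and 15577958 counts. URA3 and MET17 (MET15) had 0 counts in every library and LEU2 at most 1, while HHT1 had at least 5935 and HHT2 at least 11771. In H3L126H, whole chromosomes were shifted relative to WT. The median log2 fold change over the tested genes of chromosome II was 0.41 in YPEG and 0.42 in YPD. That of chromosome XVI was 0.37 in YPEG and 0.41 in YPD. That of chromosome III was 0.27 in YPEG and 0.20 in YPD, and that of chromosome V 0.20 in YPEG and 0.23 in YPD. The mitochondrial genes tested (12 in YPEG and 10 in YPD) had a median of 1.09 in each medium. In H3L126M the mitochondrial median was 0.61 in YPEG and -0.05 in YPD. ACH1 lies on chromosome II and YAT2 on chromosome V. No other member lies on a chromosome with such a shift: the corresponding medians of chromosomes I, XII, XIII and XV lay between -0.14 and 0.06.

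In the R64 assembly, which is the sacCer3 build of the files, each member is a single uninterrupted coding sequence. ACS1 (YAL054C) occupies chrI:42881-45022 on the minus strand, ACS2 (YLR153C) chrXII:445524-447575 on the minus strand, and ACH1 (YBL015W) chrII:194122-195702 on the plus strand. CAT2 (YML042W) occupies chrXIII:192788-194800 and YAT1 (YAR035W) chrI:190193-192256, both on the plus strand. YAT2 (YER024W) occupies chrV:202192-204963 on the plus strand and CRC1 (YOR100C) chrXV:513295-514278 on the minus strand. Every window of 50 bases in these coding sequences occurs once in the genome, and no other annotated coding sequence overlaps them, so no stretch of that length is shared between the paralogs.

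The promoters of the members differ in the binding motifs of the factors known to act on genes of ethanol and acetate use. The window searched was the 600 bases before the start codon, on both strands, and the same search was run on 6005 nuclear genes. The 11-letter carbon source-responsive element, to which the activators Cat8 and Sip4 bind, is in the windows of ACS1, YAT1 and YAT2, and in 0.533% of all windows (32 genes). TTGGGG, one form of the core bound by the activator Adr1, is in those of ACS1 (3 times), CAT2 and YAT1 and in 12.3% of all windows, and TTGGAG, the other form, is in that of YAT2 and in 22.8% of all. TAGCCGCC, bound by the repressor Ume6, is in those of ACS1, CAT2 and CRC1 and in 2.81% of all. CATGTG, bound by Ino2 and Ino4, is in that of ACS1 as 2 overlapping matches on opposite strands, and in 16.4% of all. The windows of ACS2 and ACH1 hold none of these letters. No other overlap between motifs occurs in the stretches below, which are shown because they hold the element in all 3 members that have it, most of the Adr1 cores and the Ume6 sites of CAT2 and CRC1, with each motif in capitals and read 5′ to 3′ on the strand of the gene (RefSeq, R64).
ACS1, chrI:45192-45462, minus strand: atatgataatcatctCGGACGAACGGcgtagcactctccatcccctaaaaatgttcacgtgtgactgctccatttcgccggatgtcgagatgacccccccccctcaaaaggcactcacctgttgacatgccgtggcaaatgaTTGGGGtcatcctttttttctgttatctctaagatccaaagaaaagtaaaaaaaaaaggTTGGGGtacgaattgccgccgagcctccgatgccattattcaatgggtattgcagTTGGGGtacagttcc
YAT1, chrI:190013-190103, plus strand: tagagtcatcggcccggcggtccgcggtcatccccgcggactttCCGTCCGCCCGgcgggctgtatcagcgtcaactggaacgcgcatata
YAT2, chrV:202002-202092, plus strand: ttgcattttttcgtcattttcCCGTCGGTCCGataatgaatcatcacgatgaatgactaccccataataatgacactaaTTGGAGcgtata
CAT2, chrXIII:192468-192583, plus strand: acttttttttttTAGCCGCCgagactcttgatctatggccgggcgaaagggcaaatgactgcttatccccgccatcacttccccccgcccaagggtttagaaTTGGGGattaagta
CRC1, chrXV:514528-514578, minus strand: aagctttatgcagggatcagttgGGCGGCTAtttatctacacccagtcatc

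Counted from the start codon, the element spans -425 to -415 in ACS1, where it reads on the opposite strand, -136 to -126 in YAT1 and -169 to -159 in YAT2. A match describes the letters of the window and not binding. Of the 32 genes with the element, 31 were tested, and in YPEG against YPD in WT 19 of them were higher and 6 lower, where 34.3% of all genes were higher and 33.2% lower. Their median log2 fold change was 0.53, against 0.02 for all genes tested. The members ACS1, YAT1 and YAT2 are among them. Against WT in YPEG, 10 were higher and 6 lower in H3L126M, where 17.1% of all genes were higher and 19.0% lower. In H3L126H 6 were higher and 11 lower in YPEG, where 18.7% of all genes were higher and 17.7% lower. In YPD 2 were higher and 2 lower in H3L126M, where 7.83% of all genes were higher and 6.74% lower. In H3L126H 10 were higher and 4 lower in YPD, where 24.5% of all genes were higher and 20.1% lower. The medians in these 4 comparisons lay between -0.01 and 0.14.

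Levels are given as CPM, counts scaled to a common library total with TMM. They are relative to all mRNA counted, and in bulk cultures a change in mRNA per cell cannot be told apart from a change in the share of cells that carry it.

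The medium separated 6 of the 7 members strongly in each strain. In the comparison of YPEG with YPD in WT, 7 of 7 members were called higher by the quasi-likelihood test of edgeR (adjusted p below 0.05 over all genes tested) where 67.4% of all 6082 genes were called, and 6 of them were past 2-fold. The same 7 of 7 were called higher in H3L126M, with 67.4% of all genes called, and 6 of 7 in H3L126H, with 67.5% called. The median log2 fold change of the members was 3.81 in H3L126M, 3.33 in H3L126H and 3.18 in WT, and that of all genes lay between 0.00 and 0.06. Because about 2 in 3 genes were called in this comparison, the size of the change is the more informative value. Of all genes tested in WT, 0.345% had a larger absolute change than CRC1, 0.855% than ACH1, 1.51% than YAT1, 1.91% than CAT2, 2.86% than ACS1, 5.84% than YAT2 and 63.2% than ACS2.

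**Figure D1:**
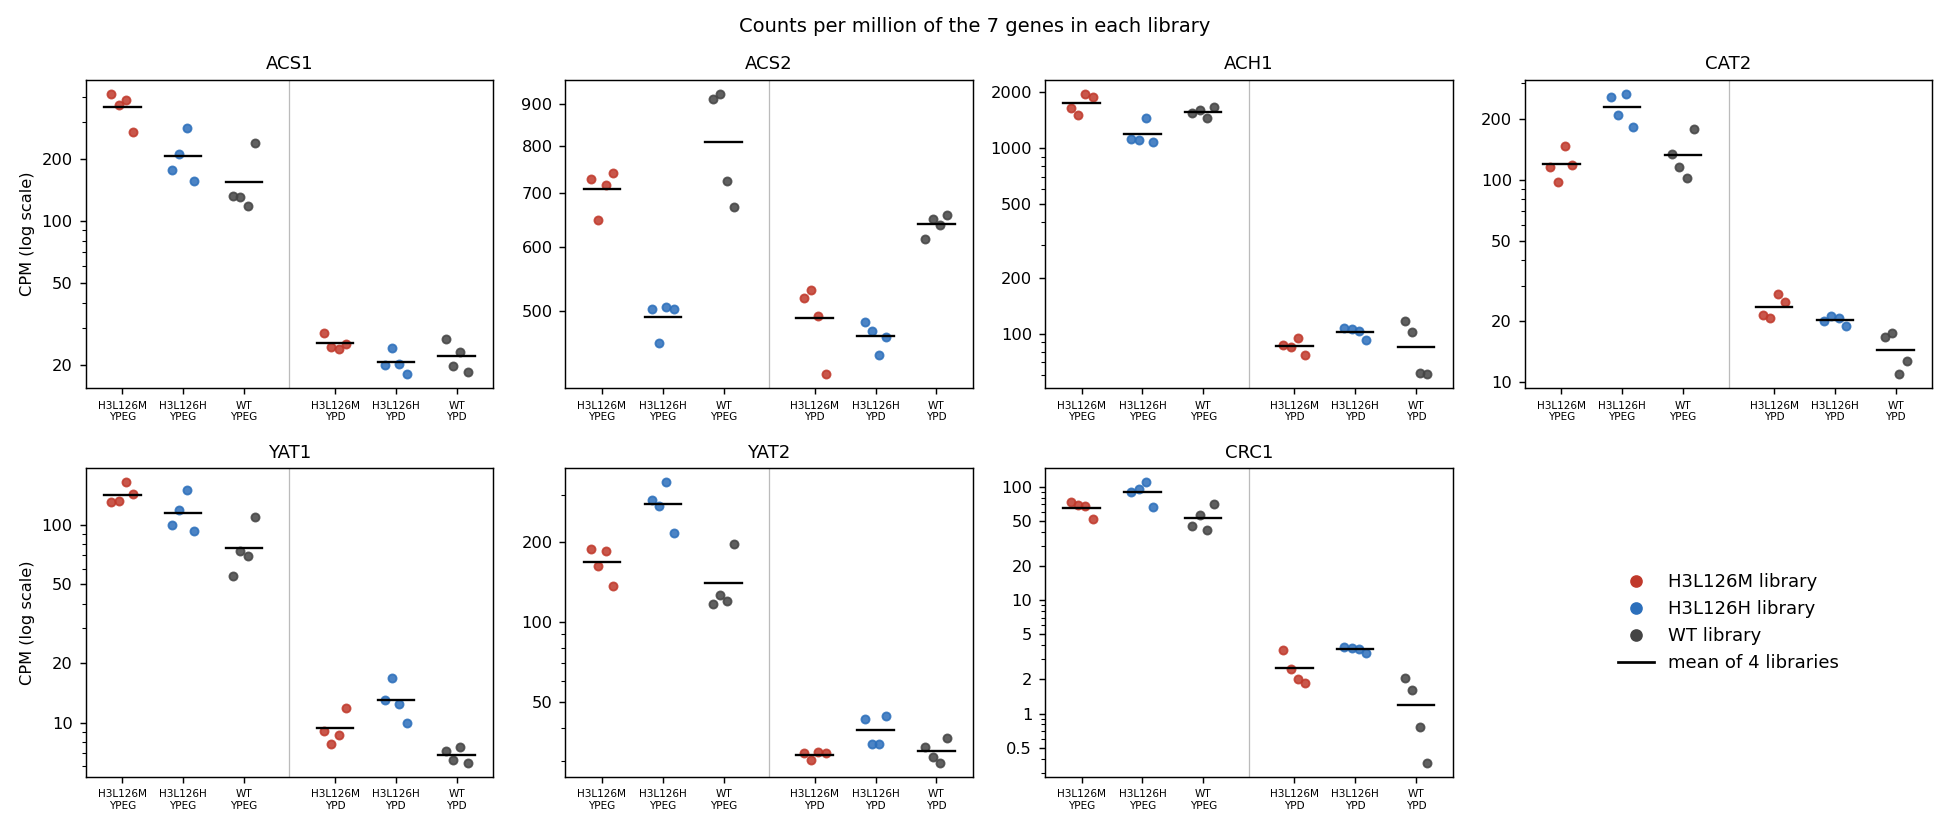
CPM (TMM-scaled, log scale) of each of the 7 genes in the 24 libraries, by strain and medium, with YPEG left and YPD right of the grey line; points are libraries and bars the mean of 4. In every panel but that of ACS2 all YPEG libraries lie above all YPD libraries.

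ACS1 encodes the acetyl-CoA synthetase that glucose represses. In YPEG it had 413, 364, 384 and 268 CPM in H3L126M, 177, 211, 282 and 156 CPM in H3L126H, and 131, 130, 117 and 238 CPM in WT (replicates 1 to 4). In YPD it had 23.8 to 28.4 CPM in H3L126M, 18.02 to 24.003 CPM in H3L126H and 18.5 to 26.8 CPM in WT. The YPEG libraries of H3L126M were all above those of WT, whose replicate 4 stood far above the other WT libraries, while the YPD libraries of the 3 strains overlapped.

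The log2 fold change of ACS1 in YPEG against YPD was 3.81 ± 0.22 (SE) in H3L126M, 3.33 ± 0.21 in H3L126H and 2.81 ± 0.21 in WT. In YPEG, H3L126M was higher than WT by 1.22 ± 0.23 on the log2 scale, a 2.33-fold difference (edgeR adjusted p = 0.00106), and 2.41% of all genes changed more. H3L126H differed from WT by 0.42 ± 0.23 in YPEG, which did not pass (edgeR adjusted p = 0.162). Without replicate 4 of WT in YPEG, the difference of H3L126M was 1.52 (adjusted p = 8.24e-05) and that of H3L126H was 0.71 and passed (adjusted p = 0.00865). In YPD neither mutant passed, with 0.23 in H3L126M and -0.05 in H3L126H.

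The response of ACS1 to the medium was larger in H3L126M than in WT. The interaction of medium and strain, which is the difference between the log2 changes in H3L126M and WT, was 0.998 ± 0.28 (edgeR adjusted p = 0.0136), in a test that called 24.7% of all genes. The interaction with H3L126H was 0.51 ± 0.29 and was not called (adjusted p = 0.215), though it passed without replicate 4 of WT in YPEG (0.80, adjusted p = 0.0242).

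ACS2, the synthetase of cytosol and nucleus that cells need on glucose, changed far less with the medium in each strain than ACS1. In YPEG it had 728, 649, 716 and 740 CPM in H3L126M, 503, 457, 506 and 503 CPM in H3L126H, and 913, 928, 724 and 673 CPM in WT. In YPD it had 520, 531, 493 and 418 CPM in H3L126M, 485, 472, 442 and 464 CPM in H3L126H, and 614, 651, 639 and 657 CPM in WT. All 8 libraries of the mutants in YPD and all 4 of H3L126H in YPEG lay below every WT library of the same medium.

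ACS2 was higher in YPEG than in YPD by 0.53 ± 0.09 on the log2 scale in H3L126M (edgeR adjusted p = 2.28e-05) and by 0.34 ± 0.09 in WT (adjusted p = 0.00248). In H3L126H the change was 0.08 with a 95% interval from -0.11 to 0.27 (adjusted p = 0.460). The difference of the responses was not called for either mutant, at 0.19 with H3L126M (adjusted p = 0.291) and -0.26 with H3L126H (adjusted p = 0.169). Against WT, ACS2 was lower in H3L126H, with a log2 fold change of -0.72 ± 0.11 in YPEG (adjusted p = 0.000299) and -0.41 ± 0.07 in YPD (adjusted p = 0.000439). In H3L126M it was lower in YPD, at -0.36 ± 0.07 (adjusted p = 0.00314), and the difference of -0.18 in YPEG did not pass (adjusted p = 0.214).

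The balance between the 2 synthetases was taken within each library, as the ratio of counts per kb of coding length, which does not depend on how libraries are scaled. The ACS1 to ACS2 ratio was 0.544, 0.537, 0.514 and 0.347 in H3L126M, 0.337, 0.442, 0.534 and 0.298 in H3L126H, and 0.138, 0.134, 0.155 and 0.339 in WT in YPEG. In YPD it averaged 0.05004 ± 0.0063 in H3L126M, 0.0423 ± 0.0051 in H3L126H and 0.0330 ± 0.0066 in WT (SD, n = 4 each). ACS2 was the more abundant transcript per length in every library, by 1.84 to 7.44 times in YPEG and by 17.3 to 37.1 times in YPD.

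The log2 ratio was higher in H3L126M than in WT by 1.43 in YPEG and by 0.61 in YPD, with no overlap between the libraries in either medium. Each gave an exact permutation p = 0.0286 (two-sided, the smallest that 4 against 4 libraries allow) and an adjusted p = 0.0400 over 14 comparisons of ratios. In H3L126H it was higher than in WT by 1.15 in YPEG and 0.37 in YPD, each with an exact permutation p = 0.0857 (adjusted p = 0.0923), since the libraries overlapped. Without replicate 4 of WT the differences in YPEG were 1.75 in H3L126M and 1.46 in H3L126H. YPEG was above YPD by 3.26 in H3L126M, 3.22 in H3L126H and 2.44 in WT, each with an exact permutation p = 0.0286 (adjusted p = 0.0400). With chromosome medians removed, the smallest adjusted p over the 14 comparisons was 0.0571, so no difference of this ratio passed. In YPEG the gap between H3L126M and WT was narrow, from a log2 ratio of -1.52 in the lowest H3L126M library to -1.56 in replicate 4 of WT. The medians of chromosomes I (ACS1) and XII (ACS2) in that comparison were 0.01 and -0.04.

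**Figure D2:**
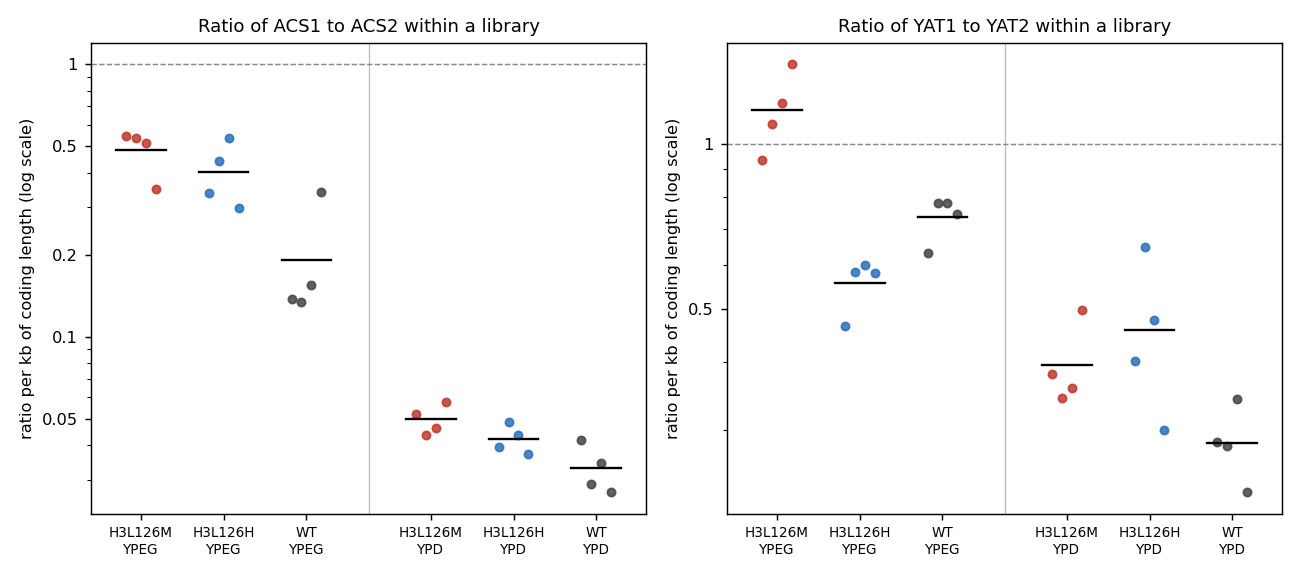
Ratio of ACS1 to ACS2 (left panel) and of YAT1 to YAT2 (right panel) per kb of coding length within each library, log scale, with the mean of 4 libraries as a bar and a dashed line at 1. The ACS1 to ACS2 ratio stays below 1 in all libraries, and the YAT1 to YAT2 ratio is above 1 in 3 of the 4 H3L126M libraries in YPEG and in no other library.

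ACH1, the mitochondrial CoA transferase, had the highest level per length of the 7 in YPEG. It had 1641, 1517, 1967 and 1890 CPM in H3L126M, 1127, 1114, 1454 and 1083 CPM in H3L126H, and 1558, 1615, 1458 and 1673 CPM in WT in YPEG. Its YPD levels were 77.1 to 95.4 CPM in H3L126M, 92.1 to 107.9 CPM in H3L126H, and 116, 103, 61.3 and 60.8 CPM in WT. The H3L126H libraries in YPEG all lay below those of WT, with replicate 3 close to the lowest WT library, and the WT libraries in YPD fell into 2 higher and 2 lower ones.

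The log2 change of ACH1 in YPEG against YPD was 4.35 ± 0.18 in H3L126M, 3.54 ± 0.17 in H3L126H and 4.21 ± 0.18 in WT. Against WT in YPEG, ACH1 was lower in H3L126H, at -0.40 ± 0.12 on the log2 scale (edgeR adjusted p = 0.0208), and the difference of 0.17 in H3L126M was not called. The median of chromosome II was shifted upward in the same comparison, and with chromosome medians removed ACH1 was at -0.81 (adjusted p = 0.000683). The call did not hold without replicate 1, 2 or 4 of H3L126H in YPEG (values from -0.37 to -0.36, adjusted p from 0.0611 to 0.0642). In YPD the value for H3L126H was 0.31 (adjusted p = 0.189), it was -0.11 with chromosome medians removed, and it passed at 0.50 without replicate 1 of WT in YPD (adjusted p = 0.0255).

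The interaction of medium and H3L126H was -0.67 ± 0.22 for ACH1 (edgeR adjusted p = 0.0371), in a test that called 19.4% of all genes. That call was lost in 8 of the 16 fits that left out 1 library, with adjusted p up to 0.0692. These were the fits without replicate 1, 2 or 3 of H3L126H in YPD, without replicate 2 or 4 of WT in YPEG, and without replicate 1, 2 or 4 of H3L126H in YPEG. The interaction with H3L126M was 0.14 (adjusted p = 0.664).

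The carnitine acetyltransferases of the organelles and the carrier were low in YPD. CAT2 had 116, 97.5, 146 and 119 CPM in H3L126M, 256, 208, 265 and 182 CPM in H3L126H, and 133, 115, 102 and 177 CPM in WT in YPEG. In YPD it had 20.8 to 27.2 CPM in H3L126M, 19.0 to 21.3 CPM in H3L126H and 11.002 to 17.6 CPM in WT. H3L126H was above every WT library in both media, whereas H3L126M was above WT in YPD and overlapped it in YPEG.

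CAT2 was higher in H3L126H than in WT by 0.79 ± 0.17 on the log2 scale in YPEG (edgeR adjusted p = 0.00300) and by 0.53 ± 0.15 in YPD (adjusted p = 0.0129). In H3L126M it was higher by 0.72 ± 0.15 in YPD (adjusted p = 0.00537), and the difference in YPEG was -0.13 with a 95% interval from -0.49 to 0.24 (adjusted p = 0.582). The change between media was smaller in H3L126M, at 2.34 ± 0.17, than in WT, at 3.18 ± 0.18, with an interaction of -0.84 ± 0.24 (adjusted p = 0.0127). In H3L126H it was 3.49 ± 0.18, and the interaction of 0.31 was not called (adjusted p = 0.383).

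YAT1, the acetyltransferase of the outer membrane, had 131, 131, 164 and 143 CPM in H3L126M, 99.2, 118, 149 and 92.7 CPM in H3L126H, and 55.0, 73.3, 69.4 and 109 CPM in WT in YPEG. Its YPD levels were 7.76 to 11.9 CPM in H3L126M, 9.94 to 16.9 CPM in H3L126H and 6.28 to 7.56 CPM in WT. All H3L126M libraries were above all WT libraries in both media, and those of H3L126H were above WT in YPD but overlapped replicate 4 of WT in YPEG.

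The log2 change of YAT1 between media was 3.92 ± 0.20 in H3L126M, 3.14 ± 0.19 in H3L126H and 3.48 ± 0.20 in WT, and neither interaction was called. In YPEG, YAT1 was higher than in WT by 0.90 ± 0.19 in H3L126M (edgeR adjusted p = 0.00204) and by 0.58 ± 0.19 in H3L126H (adjusted p = 0.0247). The call in H3L126H was lost in 5 of the 8 fits that left out 1 library of the pair (replicates 1, 2 and 3 of WT, and 2 and 3 of H3L126H), with adjusted p up to 0.0928, and with chromosome medians removed (0.52, adjusted p = 0.0538). In YPD it was higher by 0.97 ± 0.18 in H3L126H (adjusted p = 0.000804), and the difference of 0.47 ± 0.18 in H3L126M did not pass (adjusted p = 0.102).

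YAT2, the cytosolic acetyltransferase, had 188, 162, 185 and 137 CPM in H3L126M, 287, 273, 333 and 215 CPM in H3L126H, and 117, 126, 119 and 196 CPM in WT in YPEG. Its YPD levels were 30.3 to 32.4 CPM in H3L126M, 34.9 to 44.5 CPM in H3L126H and 29.7 to 36.6 CPM in WT. Every H3L126H library in YPEG was above every WT library, while the YPD libraries overlapped.

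YAT2 was higher in H3L126H than in WT by 0.98 ± 0.17 on the log2 scale in YPEG (edgeR adjusted p = 0.000832), and 3.34% of all genes changed more. The median of chromosome V was 0.20 in this comparison, and with chromosome medians removed YAT2 was at 0.78 (adjusted p = 0.00585). In YPD the difference was 0.31 ± 0.10 (adjusted p = 0.0227), against a chromosome V median of 0.23, and with chromosome medians removed it was 0.08 and not called (adjusted p = 0.548). The call in YPD was also lost without replicate 2 or 3 of WT, or 1 or 4 of H3L126H (values from 0.25 to 0.29, adjusted p from 0.0567 to 0.0769), with all 24 libraries in the fit (0.27, adjusted p = 0.172) and with only the 8 libraries compared (0.30, adjusted p = 0.0596). In H3L126M the differences from WT were 0.28 in YPEG (adjusted p = 0.225) and -0.02 in YPD (adjusted p = 0.914), and without replicate 4 of WT the one in YPEG was 0.50 (adjusted p = 0.0151). The change between media was 2.40 ± 0.16 in H3L126M, 2.81 ± 0.16 in H3L126H and 2.09 ± 0.16 in WT. The interaction of 0.72 ± 0.21 with H3L126H was called (adjusted p = 0.0207), and it was lost without replicate 1 of WT in YPD, replicate 3 of WT in YPEG or replicate 3 of H3L126H in YPEG (adjusted p from 0.0534 to 0.0560). The interaction with H3L126M was 0.31 (adjusted p = 0.287), and 0.54 without replicate 4 of WT in YPEG (adjusted p = 0.0312).

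CRC1, the carrier, was the member with the lowest level per length in YPD. It had 72.5, 69.1, 67.3 and 52.0 CPM in H3L126M, 88.9, 95.7, 109 and 66.3 CPM in H3L126H, and 45.0, 56.3, 41.4 and 70.4 CPM in WT in YPEG. YPD libraries held 42, 24, 23 and 22 counts in H3L126M, 40, 34, 35 and 29 counts in H3L126H, and 21, 16, 8 and 4 counts in WT, so its values there rest on few reads. The H3L126H libraries were all above WT in YPD, and in YPEG only their replicate 4 overlapped WT.

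The log2 change of CRC1 between media was 4.71 ± 0.25 in H3L126M, 4.61 ± 0.24 in H3L126H and 5.48 ± 0.28 in WT, the largest of the 7 in each strain. In H3L126H it was higher than in WT by 0.75 ± 0.17 in YPEG (edgeR adjusted p = 0.00419) and by 1.67 ± 0.38 in YPD (adjusted p = 0.00315). In H3L126M the differences were 0.30 in YPEG (adjusted p = 0.188) and 1.08 ± 0.39 in YPD (adjusted p = 0.0812). The one in YPEG was 0.48 without replicate 4 of WT (adjusted p = 0.0376), and the one in YPD passed with DESeq2 (adjusted p = 0.0443) and without replicate 1 of WT (1.47, adjusted p = 0.0286). Neither interaction was called, though that with H3L126H, -0.87, passed without replicate 1 of WT in YPD (-1.34, adjusted p = 0.0438).

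**Figure D3:**
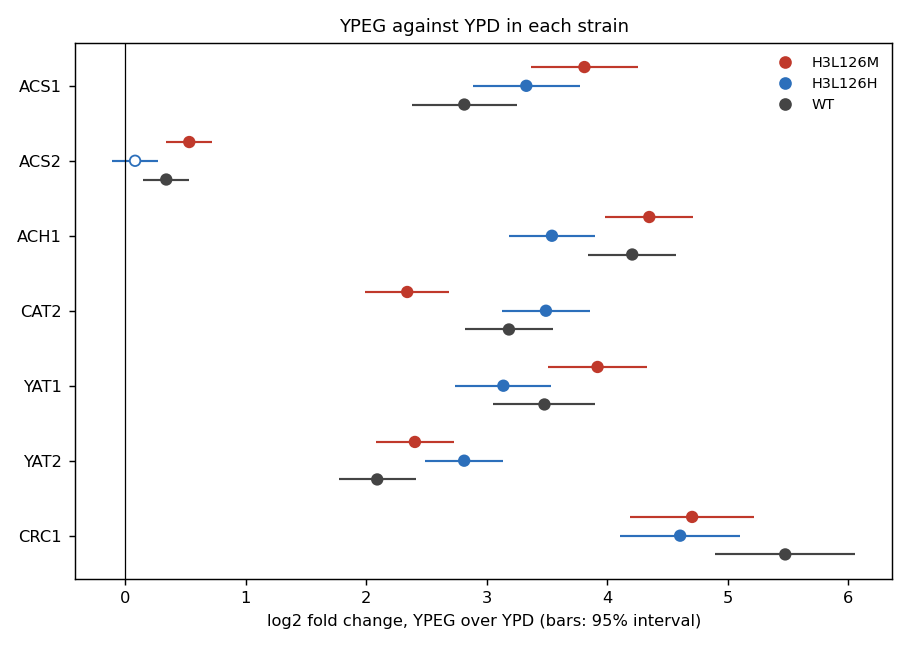
Log2 fold change of YPEG over YPD for each gene in H3L126M, H3L126H and WT (edgeR, 24 libraries), with 95% intervals; filled points are called and the open point is not. CRC1 has the largest change in every strain, from 4.61 to 5.48, and ACS2 the smallest, from 0.08 to 0.53.

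Counted over the members, 2 of 7 were higher and 0 lower in H3L126M than in WT in YPEG (ACS1 and YAT1), where 36.2% of all 6022 genes were called. The count was 4 without replicate 4 of WT in YPEG, with YAT2 and CRC1 added. In H3L126H 4 of 7 were higher (CAT2, YAT1, YAT2 and CRC1, the 4 genes of the shuttle) and 2 lower (ACS2 and ACH1), where 36.4% of all genes were called. The median log2 fold change of the members was 0.28 in H3L126M and 0.58 in H3L126H, against 0.01 and 0.00 for all genes. Both mutants were compared with the same WT libraries.

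In YPD, 1 of 7 was higher (CAT2) and 1 lower (ACS2) in H3L126M than in WT, with 14.6% of all 5976 genes called. In H3L126H 4 were higher (CAT2, YAT1, YAT2 and CRC1) and 1 lower (ACS2), with 44.6% of all genes called. ACS2 was thus lower than in WT in both mutants in YPD, and CAT2 was higher in both. The median log2 fold change of the members was 0.23 in H3L126M and 0.31 in H3L126H.

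**Figure D4:**
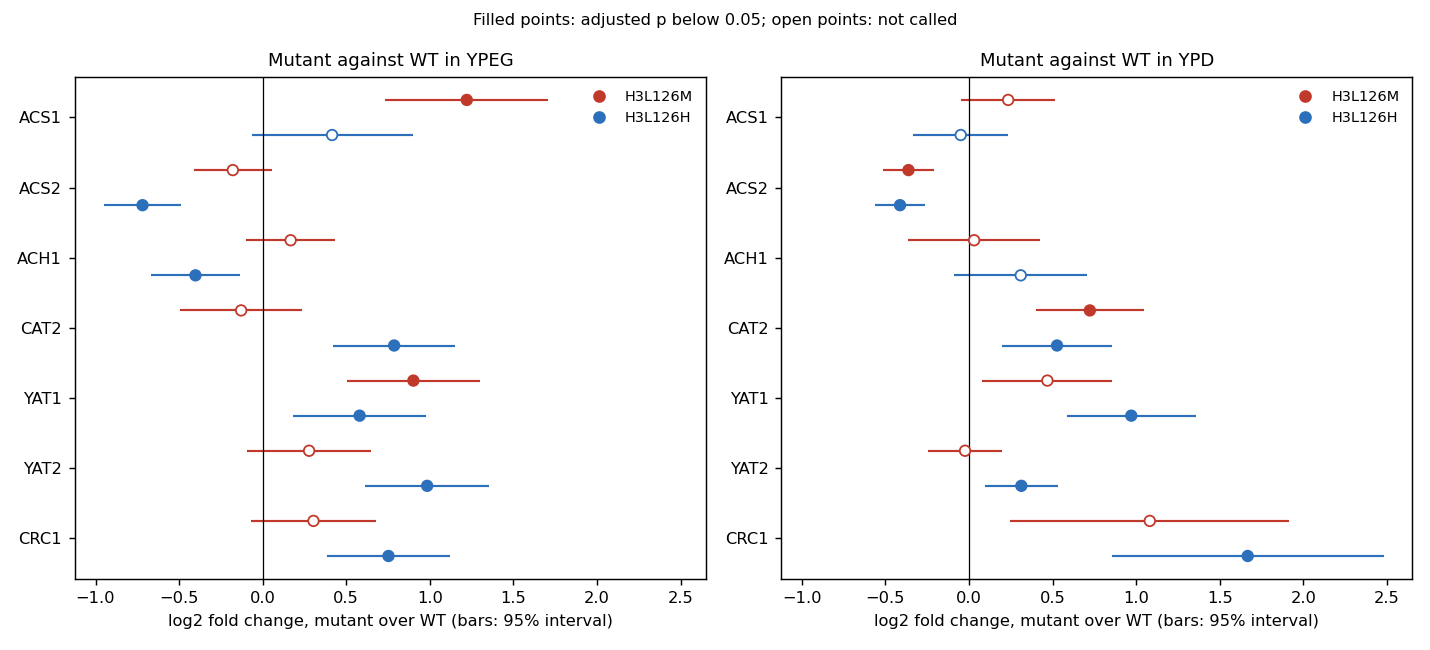
Log2 fold change over WT of each gene in H3L126M and H3L126H, in YPEG (left panel) and YPD (right panel), with 95% intervals (edgeR, 12 libraries per medium); filled points are called. In H3L126H the 4 shuttle genes lie above 0 and ACS2 lies below 0 in both media.

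The mutants also differed from each other. In YPEG, H3L126M was higher than H3L126H in ACS1 (0.81 ± 0.23, edgeR adjusted p = 0.0107), ACS2 (0.54 ± 0.11, adjusted p = 0.00128) and ACH1 (0.57 ± 0.12, adjusted p = 0.00233), the 3 genes that activate acetate. With chromosome medians removed the value of ACH1 was 0.97 (adjusted p = 5.70e-05). It was lower in CAT2 (-0.92 ± 0.17, adjusted p = 0.000739), YAT2 (-0.71 ± 0.17, adjusted p = 0.00471) and CRC1 (-0.45 ± 0.17, adjusted p = 0.0486). That is 6 of 7 members, where 40.6% of all genes were called, and YAT1 was at 0.32 (adjusted p = 0.176). With chromosome medians removed YAT2 was at -0.52 (adjusted p = 0.0327). The call of CRC1 was lost in 7 of the 8 fits that left out 1 library of the pair, all but the one without replicate 4 of H3L126H, with adjusted p up to 0.155. In YPD 2 of 7 were called, with 35.7% of all genes called. YAT1 (-0.50 ± 0.17, adjusted p = 0.0380) and YAT2 (-0.34 ± 0.10, adjusted p = 0.0199) were lower in H3L126M, and with chromosome medians removed neither passed (-0.50 for YAT1, adjusted p = 0.0571, and -0.09 for YAT2, adjusted p = 0.561). YAT1 was also not called in the fits without replicate 1, 2 or 3 of either mutant, nor YAT2 without replicate 1 or 4 of H3L126H.

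The responses to the medium differed from WT for 2 of 7 members with H3L126M (ACS1 higher, CAT2 lower) and for 2 of 7 with H3L126H (YAT2 higher, ACH1 lower). These counts are close to the shares of all genes called, 24.7% with H3L126M and 19.4% with H3L126H. The medians of the interaction over the members were 0.19 with H3L126M and -0.26 with H3L126H, against -0.01 and 0.02 for all genes.

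The ratio of YAT1 to YAT2 within a library, per kb of coding length, moved with strain as well as medium. In YPEG it was 0.934, 1.09, 1.19 and 1.401 in H3L126M, 0.464, 0.583, 0.602 and 0.580 in H3L126H, and 0.633, 0.781, 0.781 and 0.745 in WT. In YPD it averaged 0.395 ± 0.070 in H3L126M, 0.457 ± 0.147 in H3L126H and 0.284 ± 0.046 in WT (SD, n = 4 each). In YPEG the H3L126M libraries lay above and the H3L126H libraries below all those of WT.

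The log2 ratio differed from WT in YPEG by 0.64 in H3L126M and by -0.40 in H3L126H, and in YPD by 0.47 in H3L126M, each with an exact permutation p = 0.0286 (adjusted p = 0.0400). In H3L126H it differed by 0.64 in YPD (exact permutation p = 0.0571, adjusted p = 0.0727). YPEG was above YPD by 1.55 in H3L126M and 1.38 in WT (exact permutation p = 0.0286, adjusted p = 0.0400 each), and by 0.34 in H3L126H (exact permutation p = 0.257, adjusted p = 0.257). With the difference between the medians of chromosomes I and V removed, the ratio in H3L126H in YPEG differed from WT by -0.26 and did not pass (adjusted p = 0.123). The same step left the 3 differences of H3L126M at 0.64 against WT in YPEG (adjusted p = 0.0571), 0.40 against WT in YPD (adjusted p = 0.109) and 1.62 for YPEG against YPD (adjusted p = 0.0571). None of these 3 passed either.

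Levels were compared between genes as CPM per kb of coding length. In YPEG ACH1 averaged 1109 ± 133 in H3L126M, 756 ± 110 in H3L126H and 997 ± 58 in WT (SD, n = 4 each), above at least 95.4% of the 5824 genes with a coding length. ACS2 followed, at 345 ± 20 in H3L126M, 239.8 ± 11.5 in H3L126H and 394 ± 63 in WT. ACS1 came next in H3L126M, at 167 ± 29, with no library overlapping those of the 4 shuttle genes.

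The shuttle genes lay close together in YPEG. They averaged 59.4 to 68.9 CPM per kb in H3L126M, 55.7 to 113 in H3L126H and 37.1 to 65.4 in WT. In WT, ACS1 (72.0 ± 26.3), CAT2 (65.4 ± 16.2), CRC1 (54.1 ± 13.3), YAT2 (50.4 ± 13.7) and YAT1 (37.1 ± 11.1) followed in this order, and the ranges of neighbours overlapped in each case. In H3L126H the order below ACS2 was CAT2, YAT2, ACS1, CRC1 and YAT1, again with overlapping neighbours.

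In YPD ACS2 was first in every strain, at 239 ± 25 CPM per kb in H3L126M, 227 ± 9 in H3L126H and 312 ± 9 in WT, and ACH1 followed, at 54.4 ± 4.8, 64.9 ± 4.5 and 54.0 ± 18.1 in the same strains. ACS1, CAT2 and YAT2 averaged between 7.20 and 14.2, YAT1 between 3.33 and 6.32, and CRC1 between 1.22 and 3.74 in the 3 strains. The libraries of CRC1 lay below those of YAT1 without overlap in each strain. CRC1 was above 1.72% of genes in H3L126M, 2.85% in H3L126H and 1.55% in WT in YPD, and above 59.7%, 69.2% and 51.3% in the same strains in YPEG.

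**Figure D5:**
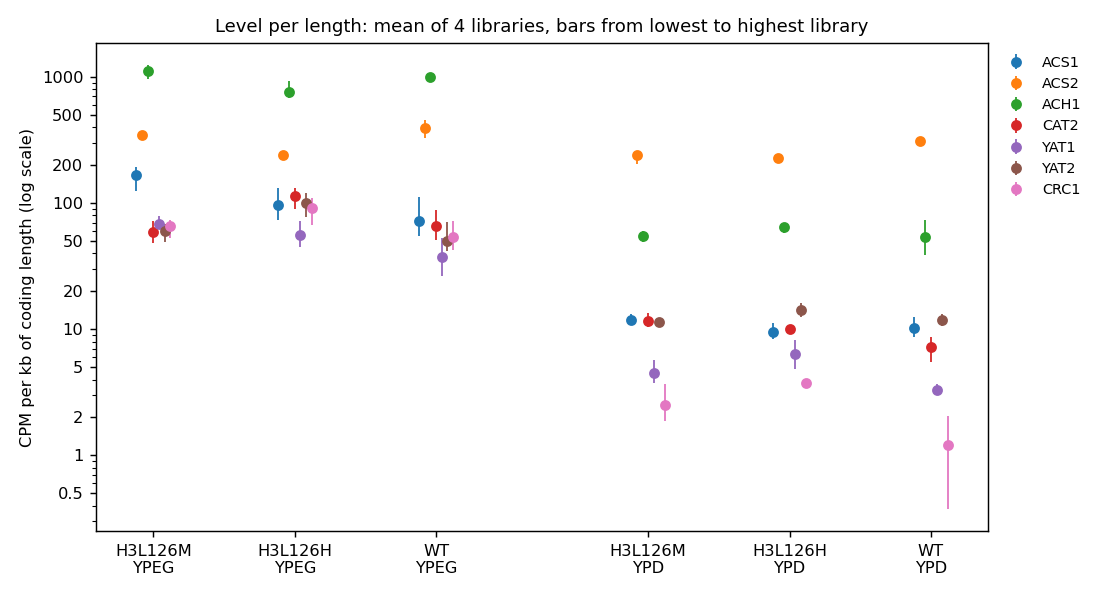
Mean CPM per kb of coding length of each gene by group (log scale), with bars from the lowest to the highest of 4 libraries. ACH1 and ACS2 stand apart at the top in YPEG, whereas in YPD ACS2 stands alone, at 312 in WT, and CRC1 is lowest.

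Patterns of the members over the 6 group means were compared as the root mean square (RMS) distance between log2 CPM profiles, each centred on its gene. YAT1 and ACS1, which both lie on chromosome I, were 0.34 apart, with 21 genes closer to ACS1, and CAT2 and YAT2 were 0.38 apart, with 15 genes closer to CAT2. The paralogs ACS1 and ACS2 were 1.56 apart, with 2071 genes closer to ACS1. The nearest genes to ACS1 were PUT1 (0.24) and CYB2 (0.25), to ACH1 ODC1 (0.12) and GUT2 (0.16), and to CAT2 GPG1 (0.14) and ICL2 (0.24).

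The nearest to YAT1 was SIP4 (0.26), which encodes an activator that binds the carbon source-responsive element, followed by OM14 (0.27). YAT2 was nearest to AI3 and BI2 (0.18 each), which lie in introns of mitochondrial genes. The median of the mitochondrial genes was itself shifted, at 1.09 in H3L126H against WT in YPEG. ACS2 was nearest to YDR029W (0.09) and IES1 (0.10). CRC1 was nearest to DDR2 (0.38) and ARO10 (0.39). These distances rest on 6 points that share libraries, and they carry no test.

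The genes around the members in the pathway were followed in 5 lists, whose counts stand beside the shares of all genes called: 67.4% in YPEG against YPD in WT, 36.2% in H3L126M and 36.4% in H3L126H against WT in YPEG, and 14.6% in H3L126M and 44.6% in H3L126H against WT in YPD. Split by direction, 34.3% of all genes were higher and 33.2% lower in YPEG against YPD in WT. Against WT in YPEG, 17.1% were higher and 19.0% lower in H3L126M, and 18.7% higher and 17.7% lower in H3L126H. Against WT in YPD, 7.83% were higher and 6.74% lower in H3L126M, and 24.5% higher and 20.1% lower in H3L126H. No list was tested as a set.

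Of 9 genes that supply acetate from pyruvate and ethanol, 4 were higher and 3 lower in YPEG than in YPD in WT. Their total called was near the share of all genes. ADH2, the alcohol dehydrogenase that oxidises ethanol, was higher by 6.61 ± 0.18 on the log2 scale (edgeR adjusted p = 2.86e-19). In H3L126M against WT 5 of 9 were higher in YPEG and 5 in YPD, where 1 was lower. In H3L126H 3 were higher and 1 lower in YPEG, and 4 higher and 2 lower in YPD. The pyruvate decarboxylase genes PDC6 and PDC5 were higher in both mutants in YPD: PDC6 by 2.25 ± 0.32 in H3L126M (adjusted p = 0.000286) and 1.77 ± 0.33 in H3L126H (adjusted p = 0.000833). PDC5 was higher by 1.23 ± 0.13 in H3L126M (adjusted p = 3.81e-05) and 1.12 ± 0.14 in H3L126H (adjusted p = 3.46e-05).

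Of 9 genes of the pyruvate dehydrogenase complex and its regulators, 3 were higher and 0 lower in YPEG than in YPD in WT. Their total called was a smaller share than that of all genes. LPD1 (1.68 ± 0.08), the shared dihydrolipoamide dehydrogenase, was among the higher ones. In YPEG 3 were higher in H3L126M than in WT, while in H3L126H 1 was higher and 3 were lower, including LPD1 (-0.43 ± 0.11, edgeR adjusted p = 0.00574). In YPD 1 was lower in H3L126M, and in H3L126H 3 were higher and 3 lower, with PKP2, a kinase of the complex, at -0.94 ± 0.22 (adjusted p = 0.00352). The 3 higher ones, PDA1 (0.37), PDB1 (0.36) and PTC6 (0.35), lie on chromosomes V, II and III, whose medians in that comparison were 0.23, 0.42 and 0.20.

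Of 12 genes whose enzymes use acetyl-CoA, 6 were higher and 3 lower in YPEG than in YPD in WT. MLS1, malate synthase of the glyoxylate cycle, was higher by 8.07 ± 0.23 (edgeR adjusted p = 4.39e-19). In YPEG 5 were higher and 0 lower in H3L126M than in WT, and 3 were higher and 4 lower in H3L126H. CIT2, the peroxisomal citrate synthase, was higher in both, by 1.62 ± 0.35 in H3L126M (adjusted p = 0.00271) and 1.48 ± 0.35 in H3L126H (adjusted p = 0.00505), where the median of its chromosome, III, was 0.27. CIT3, a mitochondrial citrate and methylcitrate synthase, was higher by 0.54 ± 0.20 in H3L126M (adjusted p = 0.0494) and 1.65 ± 0.20 in H3L126H (adjusted p = 6.92e-05), where the median of its chromosome, XVI, was 0.37. In YPD 1 was higher and 4 lower in H3L126M, and 3 higher and 4 lower in H3L126H.

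The 7 genes of carnitine entry and peroxisomal acetyl-CoA production were all called higher in H3L126M than in WT in YPEG, with a median log2 fold change of 0.66 against 0.01 for all genes tested. The largest were POX1 (1.10 ± 0.14, edgeR adjusted p = 5.55e-05), acyl-CoA oxidase, and POT1 (1.05 ± 0.18, adjusted p = 0.000710), the thiolase that releases acetyl-CoA. In H3L126H 1 of 7 was higher in YPEG, PXA1 (0.60 ± 0.15), a subunit of the peroxisomal fatty acid importer on the shifted chromosome XVI, while POX1 was at 0.03 and POT1 at 0.33. In YPD 2 were higher in H3L126M, and 1 was higher and 1 lower in H3L126H. In WT 5 were higher and 1 lower in YPEG than in YPD, with POX1 at 2.28 ± 0.13.

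Of 8 regulators, 5 were higher and 1 lower in YPEG than in YPD in WT, with SIP4 at 3.39 ± 0.22. The total called was close to the share of all genes, but the split was not: 34.3% of all genes were higher and 33.2% lower. SIP4 was higher in H3L126M than in WT in YPEG, by 1.29 ± 0.16 (edgeR adjusted p = 4.45e-05), and was at 0.41 ± 0.16 in H3L126H (adjusted p = 0.0537). In YPEG 4 of 8 regulators were higher and 1 lower in H3L126M, and 0 were higher and 2 lower in H3L126H. In YPD 1 was higher and 2 were lower in H3L126M, and 1 was higher and 4 lower in H3L126H. INO2, an activator of phospholipid genes, was lower in both mutants in YPD, at -1.18 ± 0.15 in H3L126M (adjusted p = 0.000144) and -1.55 ± 0.16 in H3L126H (adjusted p = 8.94e-06). In these lists PDA1, PDB1, PTC6 and PXA1 were named after their values were seen.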

How the data were processed

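The authors aligned reads of poly(A) libraries to R64-1-1 (sacCer3) with HISAT2 and counted them per ORF with featureCounts, without stated versions, and the deposited raw counts were the only input used here. A second table, the counts of each library divided by a constant from DESeq2, was not used, and 0 sample columns remained unassigned. Genes were kept at a minimum count of 10 (filterByExpr) and TMM-scaled, and edgeR 4.0.16 in R 4.3.3 gave quasi-likelihood tests of the counts. The 12 libraries of a medium were fitted together for comparisons of strains, and all 24 for the medium and the interactions. P-values were adjusted with Benjamini-Hochberg over all genes of a comparison, and genes were called below 0.05. Standard errors are the absolute log2 fold change divided by the square root of F. Ratios within libraries were tested with an exact permutation test (scipy 1.17.1), adjusted over 14 comparisons. The fits were also run on simulated counts with known changes in a small share of genes and no shifts of whole chromosomes. That run does not measure error rates in these data. Coding length was matched for 5824 of 6082 genes, and 6008 of 6692 ORFs matched the annotation.

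Named were the 7 members, per list the gene that changed most with the medium in WT and the 2 called genes that changed most in a mutant against WT, and per member the 2 genes with the nearest profile. The members and lists were chosen with earlier results of these data known. Alternatives were DESeq2 (version 1.42.0), its size factors in edgeR, no filter, a replicate block, other sets of libraries in the fit, removal of chromosome medians, and leaving out each library. Their results were kept for the members and not for the genes of the lists. For the ratios the alternatives were no division by length, a pseudocount of 1, leaving out each library and, chosen after seeing the data, removal of chromosome medians. The sizes of the differences with chromosome medians removed were kept for the YAT1 to YAT2 ratio only. Depth limits precision mainly for CRC1 in YPD. No molecular identifiers are stated, so counts may include copies of 1 molecule.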

Additional observations from a re-analysis of the deposited data

Results flagged for a closer look

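The following results stood out by the position of 1 library or by a difference between strains. Of 54 sets of 4 libraries examined (7 genes and 2 ratios in 6 groups), 8 had 1 library far from the others, as its gap to the nearest library over the whole range exceeded Dixon's 95% critical value for 4 values. Chance passes that value in about 1 in 20 independent sets, and these sets are not independent, since the ratios are built from 4 of the genes.

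In WT in YPEG replicate 4 was far above the others for ACS1 (238 CPM), for YAT2 (196 CPM) and for the ACS1 to ACS2 ratio (0.339). In H3L126H in YPEG replicate 3 was far above for ACH1 (1454 CPM), replicate 2 far below for ACS2 (457 CPM) and replicate 1 far below for the YAT1 to YAT2 ratio (0.464). In H3L126M replicate 4 was far below for the ACS1 to ACS2 ratio in YPEG (0.347), and replicate 2 for YAT2 in YPD (30.3 CPM). Because WT replicate 4 was high for ACS1 and YAT2, and was also the highest of its group for CAT2, YAT1 and CRC1, leaving it out enlarged the mutants' differences from WT in YPEG for the genes that were higher. Its part in those results was measured only by leaving it out.

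The response to the medium differed from that of WT by the interaction test of edgeR for ACS1 (0.998) and CAT2 (-0.84) with H3L126M, and for ACH1 (-0.67) and YAT2 (0.72) with H3L126H. The medians of this interaction with H3L126H over chromosomes II and V, where ACH1 and YAT2 lie, were 0.02 each. With chromosome medians removed it was -0.66 for ACH1 (edgeR adjusted p = 0.0398) and 0.75 for YAT2 (adjusted p = 0.0173).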

How the results depend on the processing

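Of 77 results for single genes, 47 were called, and 39 of these passed under every alternative. The other 8 lost the call under at least 1, and no called result changed sign. Of the 30 not called, 10 passed under at least 1 alternative. Counts of members called moved by over 1.5 times in 3 comparisons. For H3L126M against WT in YPEG the count was 2 to 4 when 1 library was left out. For H3L126M against H3L126H in YPD (2 in the fit reported) it was 0 with all 24 libraries in the fit, 4 with only the 8 libraries compared, 0 with chromosome medians removed and 0 to 2 with 1 library left out. For the interaction with H3L126H it was 1 to 2 with 1 library left out. Smaller moves occurred for H3L126H against WT. In YPEG the count (6 in the fit reported) was 4 to 7 with 1 library left out and 5 with chromosome medians removed. In YPD (5 in the fit reported) it was 4 to 6 and 4 in the same settings.

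Reversals occurred in differences that were not called in the fit reported. With chromosome medians removed, ACH1 was at -0.11 in H3L126H against WT (0.31 as reported, called at 0.50 without replicate 1 of WT) and at 0.13 in H3L126M against H3L126H (-0.28 as reported, called at -0.27 with only the 8 libraries compared), both in YPD. With 1 library left out, CAT2 in H3L126M against WT in YPEG ran from -0.242 to 0.0528. In H3L126M against WT in YPD, ACH1 ran from -0.107 to 0.222 and YAT2 from -0.0727 to 0.0259. ACS1 in H3L126H against WT in YPD ran from -0.132 to 0.0644, and ACH1 in the interaction with H3L126M from -0.0571 to 0.268.

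For the YAT1 to YAT2 ratio, removing chromosome medians gave 0.64 (H3L126M against WT, YPEG), -0.26 (H3L126H against WT, YPEG), 0.40 (H3L126M against WT, YPD) and 1.62 (YPEG against YPD, H3L126M), with adjusted p from 0.0571 to 0.123. All 4 missed the threshold, and fewer of the 14 comparisons then reached the smallest p, which raises the adjusted values. With 1 library left out these were 0.54 to 0.74, -0.47 to -0.32, 0.36 to 0.57 and 1.45 to 1.66. With chromosome medians removed, the smallest adjusted p over the 14 comparisons was 0.0571, so no ACS1 to ACS2 difference passed either.

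Replicate numbers were shared between groups, but same-numbered libraries deviated together at r over 0.1 in only 5 of 24 pairs (r from -0.35 to 0.28), so a number was not read as a pairing. With a replicate block the count for H3L126M against H3L126H in YPD was 1, and the other counts stayed within 1.5 times. The call of CRC1 between the mutants in YPEG was lost (-0.45, edgeR adjusted p = 0.0755), and that of YAT1 in YPD (-0.49, adjusted p = 0.0845). Changes of CRC1 in YPD are limited by 4 to 42 counts per library.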
